A study of Mus musculus with 12 samples.

Results

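The cells described here carried the transcripts of tendon and ligament, the fibrous tissues that join muscle to bone and bone to bone. They were chosen cell by cell in 12 libraries made from mouse hind limb joints by single-cell RNA sequencing. A cell was taken when more than 500 and fewer than 5000 genes were detected in it, when at least 3 of the 5 tenocyte genes Tnmd, Mkx, Scx, Thbs4 and Kera had at least 1 UMI (unique molecular identifier, the barcode by which copies of 1 captured transcript are counted once), when Fmod was detected, and when at most 2 of the 5 cartilage genes Acan, Col2a1, Hapln1, Matn3 and Col9a1 were. The rule took 2006 of the 20213 cells within the limits on detected genes (9.92%), out of 21042 deposited cells. They are called tenocytes and ligament cells below, and the rule does not separate tendon from ligament.

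The study followed joint inflammation in C57BL/6 wild-type male mice aged 8 to 10 weeks, in which serum of arthritic K/BxN mice (100 µl, intravenous) sets off serum transfer-induced arthritis (STIA) that later subsides. The 12 libraries carried 4 labels, 3 libraries each: rest is day 0 without serum, peak stands for days 7 to 9 after serum, resolving for day 15 and resolved for day 22. Each library held live, CD45-negative cells, from which CD45-positive immune cells had been removed by sorting, and each was pooled from the joints of 3 animals, so that n counts pools. The tissue was labelled as synovial, yet intact joints of the hind limb were digested, and tendon and ligament cells were recovered in all 12 libraries.

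Tenocytes lie in rows between parallel fibres of type I collagen and secrete the collagen together with the proteins that space and align it. Scx (scleraxis) and Mkx (mohawk) are transcription factors of the tendon lineage, and Tnmd (tenomodulin) is a membrane glycoprotein that is a marker of mature tenocytes. Thbs4 is a thrombospondin of tendon and muscle matrix, and Kera (keratocan) and Fmod (fibromodulin) are small leucine-rich proteoglycans, which bind collagen fibrils and limit their width. Ligament cells share most of these genes, and the fibrocartilage at the insertion into bone adds cartilage genes.

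The promoter sequences of the rule's genes are shown because Scx is a basic helix-loop-helix factor, a family that binds E-boxes. RefSeq sequence for GRCm38.p6 was at hand for 4 of the 6 genes. Each line gives the 250 bases before the RefSeq start, 5′ to 3′ on the gene's strand, with E-boxes (CANNTG, which reads the same on both strands) in capitals.
Tnmd: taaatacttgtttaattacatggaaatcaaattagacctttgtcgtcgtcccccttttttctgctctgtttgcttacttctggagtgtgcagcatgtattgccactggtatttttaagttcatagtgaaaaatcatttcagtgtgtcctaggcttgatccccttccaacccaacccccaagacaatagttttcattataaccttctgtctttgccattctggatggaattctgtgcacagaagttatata
Thbs4: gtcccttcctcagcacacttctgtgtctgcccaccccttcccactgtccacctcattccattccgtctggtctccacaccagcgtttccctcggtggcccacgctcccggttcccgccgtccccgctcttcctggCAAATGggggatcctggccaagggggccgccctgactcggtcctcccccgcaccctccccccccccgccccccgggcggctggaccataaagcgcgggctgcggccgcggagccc
Kera: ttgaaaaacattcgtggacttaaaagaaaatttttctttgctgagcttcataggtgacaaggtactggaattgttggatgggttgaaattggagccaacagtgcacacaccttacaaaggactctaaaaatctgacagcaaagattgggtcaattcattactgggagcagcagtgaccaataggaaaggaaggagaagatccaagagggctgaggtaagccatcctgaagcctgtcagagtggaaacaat
Fmod: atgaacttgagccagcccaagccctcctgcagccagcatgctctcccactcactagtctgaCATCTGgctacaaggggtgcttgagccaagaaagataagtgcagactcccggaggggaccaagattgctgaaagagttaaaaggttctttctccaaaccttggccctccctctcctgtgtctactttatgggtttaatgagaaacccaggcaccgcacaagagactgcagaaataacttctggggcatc
The windows are chrX:133850758-133851007 (plus strand), chr13:92794819-92795068 (minus strand), chr10:97606955-97607204 (plus strand) and chr1:134037004-134037253 (plus strand). Thbs4 held 1 E-box, CAAATG, 115 bases before the start, and Fmod held 1, CATCTG, 189 bases before it. Tnmd and Kera held none in this window. The GENCODE annotation starts both genes earlier, Kera at chr10:97606879 and Tnmd at chrX:133850980. By those starts the Kera window lies inside the gene, and the Tnmd window ends inside it. At least 1 E-box stood in 66.2% of the 32851 promoters of this length, so its presence sets no gene apart.

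Genes that the rule did not use are described here beside the label of tendon. Mean levels below are CPM (UMIs of the cells summed per library and scaled to a common total), with the SD over 12 libraries, and are compared between classes of cells within a gene. The comparison classes were 5347 fibroblast-rule cells, 412 chondrocyte-rule cells and 1764 endothelial-rule cells, chosen by marker genes in the same way. Since all classes were cut by expression, these comparisons are descriptions without a test.

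Comp, a thrombospondin abundant in tendon and cartilage, stood at 3370 CPM in tenocytes and ligament cells, at 1302 CPM in fibroblast-rule cells and at 7003 CPM in chondrocyte-rule cells. Col1a1, the main collagen of tendon, reached 13510 CPM against 6626 CPM in fibroblast-rule cells. Prg4 (lubricin), which coats the synovial lining, was at 1802 CPM against 15110 CPM in fibroblast-rule cells. Col2a1, the collagen of cartilage, was at 17.2 CPM against 20040 CPM in chondrocyte-rule cells, although the rule itself limits it. Of the 24 other tendon genes listed, 20 reached 20 CPM, all 20 above fibroblast-rule cells and 13 of them above chondrocyte-rule cells. The share of all genes at this level that lay above each class is not given here, so these counts have no background beside them.

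The gene with the highest ratio to both other classes was Coch (chr12:51593341-51605771, GRCm38), which encodes cochlin, an extracellular protein known from the inner ear. It stood at 615.5 ± 666.8 CPM in tenocytes and ligament cells, at 3.62 CPM in fibroblast-rule cells and at 1.16 CPM in chondrocyte-rule cells. The spread is wide because Coch ranged from 33.4 CPM in rest 3 to 2262 CPM in peak 1. Ptx4, a pentraxin, averaged 96.4 CPM against 1.21 and 1.69 CPM. Chodl (chondrolectin), a membrane lectin, averaged 117.5 CPM against 3.71 and 1.07 CPM. Both means rest largely on 1 cluster of the cells (cluster 1, below). There Ptx4 was at 1137 CPM and Chodl at 1876 CPM, against 31.78 and 23.69 CPM in the other tenocytes and ligament cells. Angptl7, a secreted angiopoietin-like protein, was abundant at 4974 ± 4255 CPM, against 340.7 and 192.6 CPM. All 4 genes were higher in tenocytes and ligament cells than in either class in 12 of 12 libraries. They were chosen by their ratio to these classes in the same libraries, so this count is no separate support. The chondrocyte value in resolving 3 came from 1 cell.

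**Figure D1:**
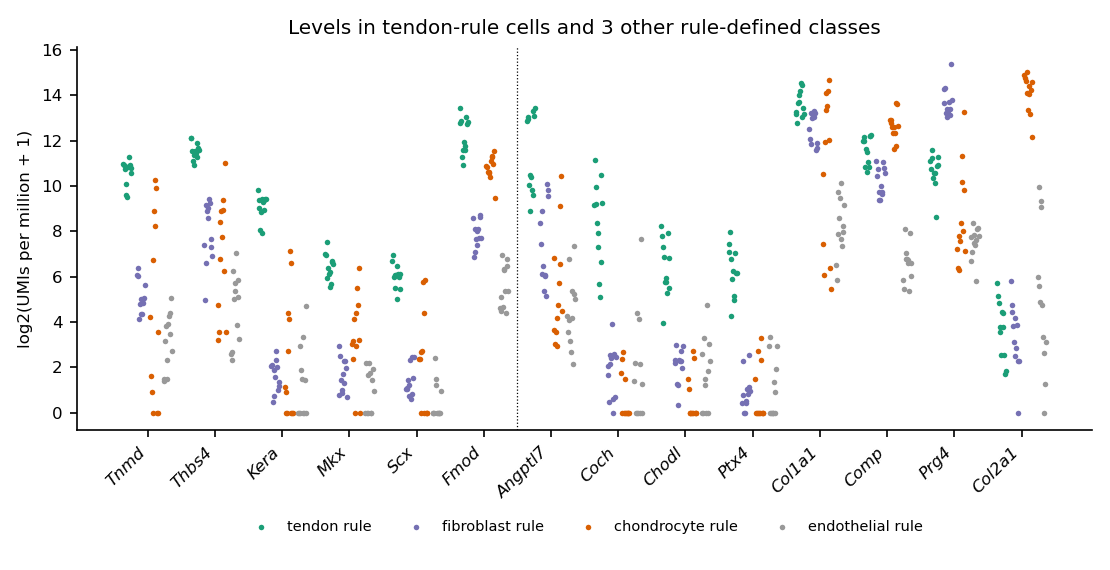
Levels, as log2(CPM + 1), of the 6 rule genes (left of the dotted line) and 8 other genes in the cells taken by the tendon rule and in the fibroblast, chondrocyte and endothelial classes. Each point is 1 library, and Coch averaged 615.5 CPM in the tendon-rule cells and 3.62 CPM in fibroblast-rule cells.

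Further down the same order stood secreted, membrane and signalling genes. S100a5, a calcium-binding protein, averaged 94.99 CPM in tenocytes and ligament cells and 3.88 CPM in fibroblast-rule cells. Itgbl1, an integrin-like secreted protein, averaged 649.4 CPM against 122.7 CPM. Mfap4, a protein of elastic microfibrils, averaged 751.5 CPM against 146.6 CPM, and Cpxm2, a carboxypeptidase-like protein, 351.0 CPM against 42.5 CPM. Ptgis (prostacyclin synthase) averaged 406.9 CPM against 141.7 CPM. The other genes among the 25 with the highest ratios were Egfl6, Uts2r, Gas2, Spon2, Rasl11b, F2r, Col8a1, Wfdc1, Nkd2 and Ptn, besides the 6 rule genes.

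Most cells passed the rule at its lower edge. Of the 2006 cells, 1306 held 3 of the 5 tenocyte genes, 599 held 4 and 101 held all 5. The commonest set was Tnmd, Thbs4 and Kera, in 673 cells (33.5%), followed by the same genes with Mkx in 311 cells (15.5%). Thbs4 was detected in 98.7% of the cells, Tnmd in 93.4%, Kera in 69.8%, Mkx in 44.2% and Scx in 33.9%. In endothelial-rule cells, which should lack these genes, the shares were 6.35%, 2.95%, 0.624%, 0.567% and 0.283%, at a median of 3308 UMIs per cell against 6974. The low shares of Mkx and Scx go with low levels (92.4 ± 38.4 and 69.4 ± 25.9 CPM), and a cell without a UMI of them may still express them.

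Just outside the rule stood 1868 cells with 2 tenocyte genes, in which Tnmd was at 507.9 CPM, Comp at 2777 CPM and Angptl7 at 2136 CPM. Cells just inside, with 3 tenocyte genes, had 3033 CPM of Comp and 3580 CPM of Angptl7. The 99 cells left out for 3 cartilage genes had 2382 CPM of Comp and 480.5 CPM of Angptl7. Angptl7 also differed among the cells taken, from 6517 CPM in the 1046 cells without a cartilage gene to 1323 CPM in the 280 cells with 2.

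Each library's median was 5358 UMIs per deposited cell, in all 12, so the counts look as if they had been brought to 1 depth, a step that is not given in the sources used here. The tenocytes and ligament cells of a library summed to between 429592 and 2972975 UMIs over 60 to 386 cells. No barcode was shared between libraries. Barcodes carry a suffix of 1 to 12 in the files, and libraries with neighbouring suffixes resembled each other whatever their label. Suffixes 1 to 3 are rest 1, peak 1 and resolving 1; suffixes 4 to 6 are resolved 1, rest 2 and peak 2; suffixes 7 to 9 are resolving 2, resolved 2 and rest 3; and suffixes 10 to 12 are peak 3, resolving 3 and resolved 3. Over 7768 genes, the most similar library had a neighbouring suffix of the same 3 in 10 of 12 cases and the same label in 0 of 12. Results are therefore given by label and by suffix. The labels are used as given, and whether each label belongs to its library was not tested. The grouping by suffix was noticed in these data, so its tests are not independent evidence, and what the suffix stands for cannot be told apart from any other difference between these libraries.

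The share of tenocytes and ligament cells in a library ran from 4.60% to 19.5%. The share was 7.90%, 7.89% and 19.5% in the rest libraries (mean 11.8 ± 6.68, SD, n = 3) and 7.11%, 7.84% and 9.11% in the peak libraries (8.02 ± 1.01). It was 5.20%, 17.0% and 8.41% in resolving (10.2 ± 6.08) and 4.60%, 14.0% and 7.33% in resolved libraries (8.65 ± 4.84). The labels overlapped. In exact two-sided permutation tests of each later label against rest p was 0.5 for peak, 0.7 for resolving and 0.5 for resolved, and 0.1 is the smallest p that 3 against 3 libraries allow.

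The 3 highest shares were those of resolving 2, resolved 2 and rest 3, the libraries suffixed 7 to 9 (16.8 ± 2.73%, SD, n = 3). The libraries suffixed 1 to 3 averaged 6.74 ± 1.39%, those suffixed 4 to 6 averaged 6.77 ± 1.89%, and those suffixed 10 to 12 averaged 8.28 ± 0.895%. Differences between the 4 sets of suffixes held 88.4% of the spread in the share (exact permutation p = 0.00662 over 15400 partitions). With each cell thinned to 2000 UMIs and the shallower cells left out, the shares were lower throughout, 3.69%, 3.16%, 9.49% and 4.07% in the order of the suffixes, with the same set highest. A share can change with the other cells of a sample as well as with the tenocytes, and dissection and digestion set how many cells each tissue gives.

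**Figure D2:**
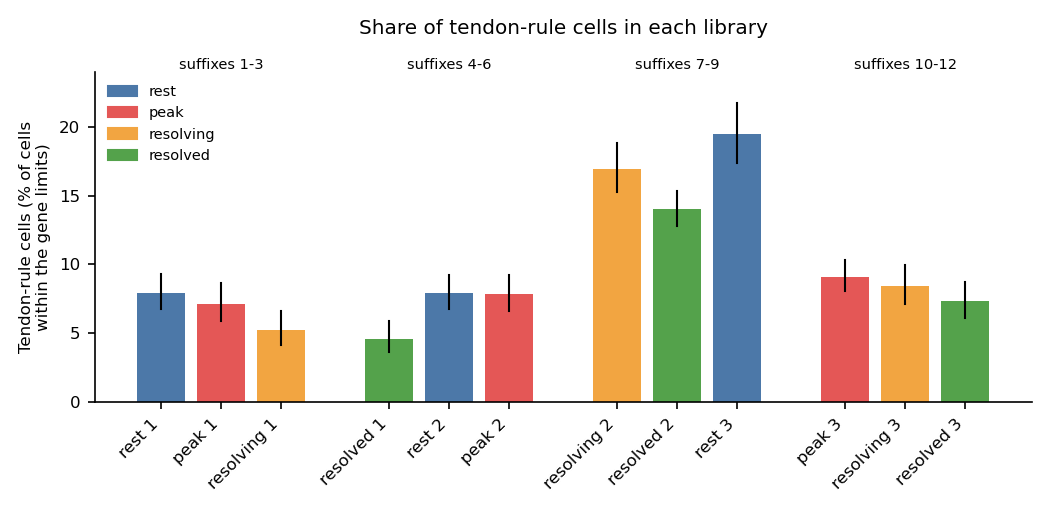
Share of tendon-rule cells (percent of cells within the gene limits) in each of the 12 libraries, in the order of the barcode suffix, coloured by label, with 95% Wilson intervals (lines) that cover counting error only. The 3 libraries suffixed 7 to 9 sit between 14.0% and 19.5%, above the other 9.

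Gene expression was compared between labels in sums of UMIs per library. No gene of 7768 was called at peak, resolving or resolved against rest (edgeR, adjusted p under 0.05 with a log2 fold change beyond 0.5 in size; 0% called in each). At an unadjusted p under 0.05 there were 118, 95 and 80 genes, and DESeq2 called 0 in each. The lowest adjusted p was 1, 0.9998 and 1, and with the set of suffixes as a block the counts were also 0. In the rest libraries Myoc (myocilin), a secreted glycoprotein, stood at 5595, 425.5 and 208.7 CPM, and Col1a1 at 9210, 13490 and 22480 CPM. The rest libraries differed widely in these 2 genes, which the rule did not use, and the absence of calls does not show that levels were alike. Nor does it show that these cells did not change with the arthritis, since the labels themselves were not tested.

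The study is about hexokinases, which phosphorylate glucose at the entry of glycolysis. Hk2 averaged 124.5 ± 81.7 CPM at rest, 143.7 ± 57.0 at peak, 129.3 ± 62.0 at resolving and 120.5 ± 50.5 at resolved (SD, n = 3), and its log2 differences from rest were 0.23, 0.08 and -0.05 with SEs of 0.56 each. Hk1, the form found in most tissues, averaged 17.4 ± 7.54, 24.9 ± 7.55, 24.2 ± 6.21 and 17.4 ± 2.26 CPM. Neither was called between labels. By suffix, Hk2 was at 131.8, 78.01 and 83.8 CPM in suffixes 1 to 3, at 117.4, 202.3 and 172.0 in suffixes 4 to 6, at 104.2, 71.7 and 39.4 in suffixes 7 to 9, and at 181.0, 200 and 172.6 in suffixes 10 to 12. None of its differences from suffixes 1 to 3 was called, with log2 fold changes of 0.70 ± 0.30 (SE; adjusted p = 0.113), -0.49 ± 0.30 (adjusted p = 0.274) and 0.95 ± 0.30 (adjusted p = 0.179). Hk1 was lower in suffixes 4 to 6 (log2 fold change -0.93, adjusted p = 0.0258) and in suffixes 7 to 9 (-0.80, adjusted p = 0.0276), but DESeq2 did not call it (adjusted p = 0.0657 and 0.0604), and the calls were lost without any 1 of 4 and any 1 of 5 libraries (up to 0.0821 and 0.0953).

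Between sets of suffixes, tenocytes and ligament cells differed in many genes. Against suffixes 1 to 3, 836 genes (10.8%) were higher and 847 (10.9%) lower in suffixes 4 to 6. In suffixes 7 to 9, 781 (10.1%) were higher and 773 (9.95%) lower. In suffixes 10 to 12, 64 (0.824%) were higher and 21 (0.27%) lower. These 3 comparisons share the libraries suffixed 1 to 3, so a gene that was unusual there moves in all of them. The percentages are the background for the counts that follow, and the median log2 fold change over all genes was -0.011, -0.0019 and -0.0030. Values did not overlap between the 2 sets compared for 35.36%, 39.04% and 17.56% of all genes, so a lack of overlap is common here.

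The genes of the rule are given as values without a test, since the rule used them. Tnmd was at 1979, 1954 and 1699 CPM in suffixes 1 to 3, at 774.8, 1099 and 740.6 CPM in suffixes 4 to 6, at 1811, 1915 and 2514 CPM in suffixes 7 to 9, and at 1929, 1774 and 1503 CPM in suffixes 10 to 12. The set 4 to 6 lay below the other 3 without overlap. Fmod was at 7124, 11170 and 7372 CPM in suffixes 1 to 3 and at 8397, 6837 and 7353 CPM in suffixes 10 to 12. In suffixes 4 to 6 it was at 2490, 3116 and 1928 CPM, and in suffixes 7 to 9 at 3974, 3043 and 3492 CPM. Tnmd and Fmod thus differed between suffixes 4 to 6 and 7 to 9: Fmod was low in both, Tnmd in the former alone.

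Kera averaged 695.5, 325.2, 652.4 and 620.2 CPM in the 4 sets in order, and had its lowest values in suffixes 4 to 6, like Tnmd. Mkx averaged 144.1, 70.8, 56.2 and 98.6 CPM, like Fmod. Thbs4 averaged 3963, 2268, 2774 and 3396 CPM. Scx averaged 96.8, 59.8, 62.9 and 58.1 CPM, and its values overlapped between suffixes 1 to 3 and each other set.

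**Figure D3:**
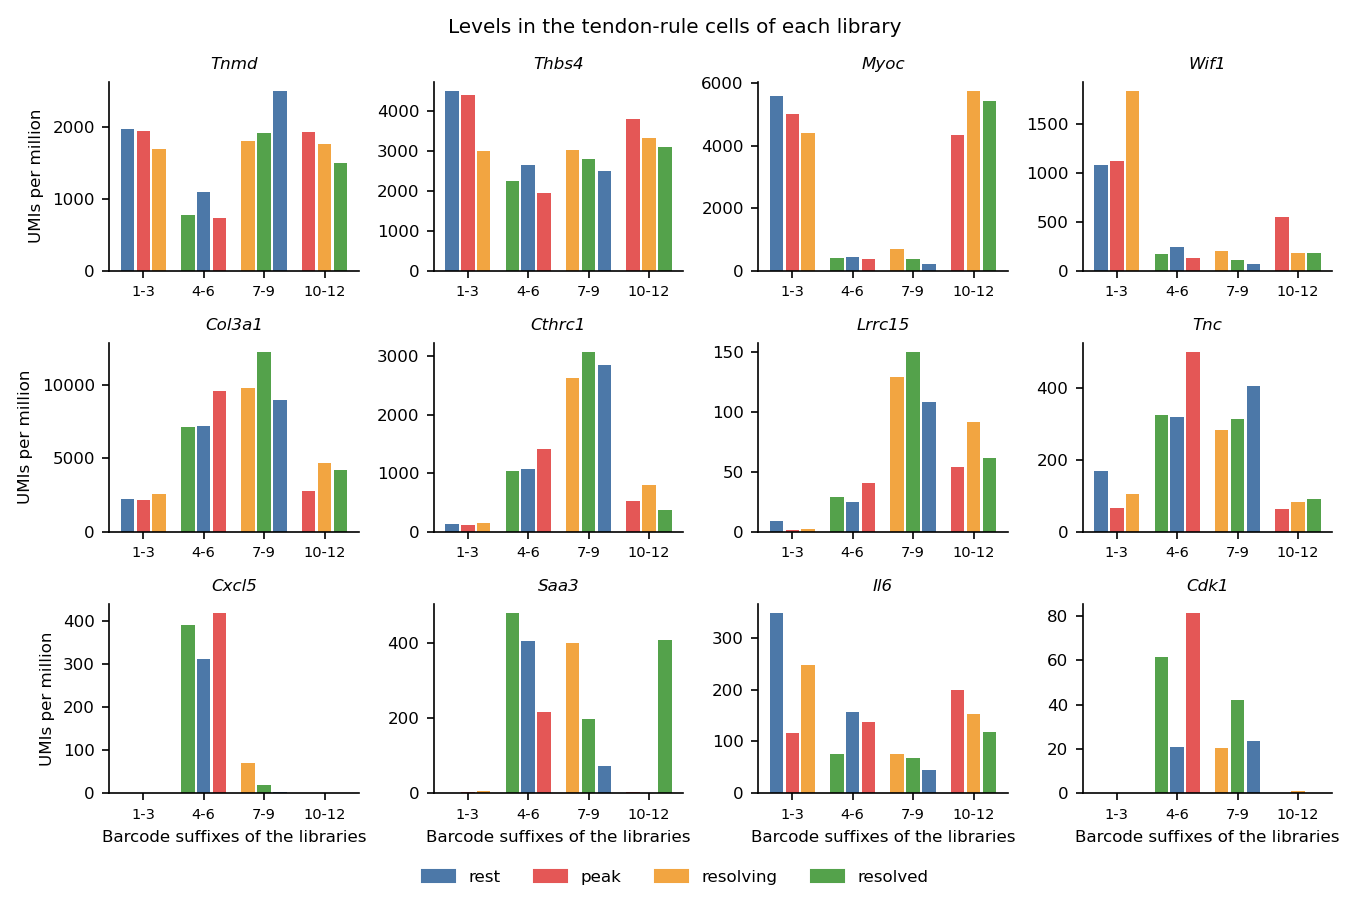
Levels (CPM) of 12 genes in tendon-rule cells of each of the 12 libraries, 1 bar per library, in the order of the barcode suffix, coloured by label. Myoc lies between 4390 and 5595 CPM in suffixes 1 to 3 and between 208.7 and 697.8 CPM in suffixes 4 to 9.

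Genes known from tendon, other than those of the rule, differed in both directions in suffixes 4 to 9. Of the 22 tested, 12 were lower and 4 higher in suffixes 4 to 6, and 11 were lower and 5 higher in suffixes 7 to 9. Myoc was at 5595, 5012 and 4390 CPM in suffixes 1 to 3 and at 411.8, 425.5 and 381.8 CPM in suffixes 4 to 6 (log2 fold change -3.66 ± 0.32, SE; adjusted p = 2.59e-06). In suffixes 7 to 9 it was at 697.8, 376.4 and 208.7 CPM, and in suffixes 10 to 12 it was at 4329, 5766 and 5424 CPM and not called. Angptl7 differed in the same sets, from 7466, 8427 and 7954 CPM to 1064, 1434 and 471.5 CPM (-3.03 ± 0.32, adjusted p = 1.32e-05) and 1331, 899.1 and 785.0 CPM (-3.0 ± 0.32, adjusted p = 1.39e-05). No library of suffixes 4 to 9 reached the lowest library of suffixes 1 to 3 for either gene.

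Chad (chondroadherin), a leucine-rich protein that binds cells and collagen, averaged 4473 CPM in suffixes 1 to 3, 808.6 CPM in suffixes 4 to 6 and 603.8 CPM in suffixes 7 to 9. Cilp2 and Cilp, proteins of the cartilage intermediate layer, were lower in both sets, Cilp2 by log2 fold changes of -2.42 and -2.09 and Cilp by -1.66 and -1.56. Comp was lower by -0.96 and -0.89, and neither call was kept with at least 4 tenocyte genes (adjusted p = 0.0953 and 0.121) or, in suffixes 7 to 9, without rest 3 (0.0652). In the other direction, Tnc (tenascin C), a matrix protein of developing and healing tendon, was at 170.2, 66.6 and 104.8 CPM in suffixes 1 to 3 and at 325.1, 320.7 and 501.9 CPM in suffixes 4 to 6 (1.68 ± 0.26, adjusted p = 0.000313). It was at 284.3, 315.5 and 406.2 CPM in suffixes 7 to 9 (1.51 ± 0.26, adjusted p = 0.000665). Bgn (biglycan) was higher in both sets, by 0.57 and 1.19, and without rest 2 the former fell below the limit on fold change.

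Aspn (asporin) and Thbs3 moved differently in the 3 comparisons. Aspn averaged 1963 CPM in suffixes 1 to 3, was lower in suffixes 4 to 6 (1176 CPM, -0.78, adjusted p = 0.00556), and was higher in suffixes 7 to 9 (2938 CPM, 0.57, adjusted p = 0.0333) and 10 to 12 (3409 CPM, 0.87, adjusted p = 0.0274). The calls of Aspn in suffixes 7 to 9 were lost without rest 1, peak 1, resolving 2 or resolved 2 (adjusted p = 0.0608 to 0.157), and those in suffixes 10 to 12 without rest 1, peak 1, peak 3 or resolving 3 (0.0662 to 0.108). Thbs3 was lower in suffixes 4 to 6 (-0.94) and higher in the other sets (0.60 and 0.93). Of the 22 tendon genes, Aspn alone was called in suffixes 10 to 12.

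Among 9 tendon regulators tested, Scx and Mkx being left out as genes of the rule, 4 were lower in suffixes 4 to 6, 4 in suffixes 7 to 9 and 1 in suffixes 10 to 12, and 0 were higher in any. Meox1, a homeobox factor of the somites, was lower in all 3 comparisons (98.3 CPM in suffixes 1 to 3; 19.1, 17.5 and 39.1 CPM in the others). Its call in suffixes 10 to 12 was lost without rest 1, resolving 3 or resolved 3 (adjusted p = 0.0501 to 0.09), with the label as a block (0.0503) and with at least 4 tenocyte genes (0.0775). Etv4, an ETS factor downstream of FGF signalling, was lower in suffixes 7 to 9 (3.60 against 19.4 CPM), and Egr1, a zinc finger factor induced by load and by tissue handling, in suffixes 4 to 9 (-0.53 and -0.77). The call of Egr1 in suffixes 4 to 6 was lost without rest 1, resolved 1 or peak 2 (adjusted p = 0.0629 to 0.103). Of 19 immediate early genes, which tissue dissociation also induces, 8 were lower and 1 higher in suffixes 4 to 6, 9 were lower in suffixes 7 to 9, and 2 were higher in suffixes 10 to 12. Their part in the other differences was not tested.

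Most fibrillar collagens tested were higher in suffixes 4 to 6 and 7 to 9. Of 9 genes, Col2a1 being left out as a gene of the rule, 7 were higher in suffixes 4 to 6, 8 in suffixes 7 to 9 and 2 in suffixes 10 to 12, and 0 were lower. Col1a1, the chain that makes up most of tendon, was at 9210, 9703 and 6969 CPM in suffixes 1 to 3, at 12800, 13490 and 16350 CPM in suffixes 4 to 6 (0.67 ± 0.16, adjusted p = 0.00632), and at 18720, 23630 and 22480 CPM in suffixes 7 to 9 (1.31 ± 0.16, adjusted p = 5.17e-05). Col3a1, the collagen of thin fibrils that is made early in repair, was at 2259, 2165 and 2593 CPM in suffixes 1 to 3 and between 7144 and 12260 CPM in suffixes 4 to 9. Its log2 fold changes were 1.73, 2.13 and, in suffixes 10 to 12, 0.81 (adjusted p = 0.0412; lost without rest 1, peak 1, resolving 1, resolving 3 or resolved 3, at 0.0868 to 0.164). Col5a1, whose product starts fibril assembly, had changes of 2.41, 2.96 and 0.92 (the last with adjusted p = 0.0491, lost without any 1 of 7 libraries, at up to 0.208 without peak 1), and Col5a3 of 2.96 and 3.05 in the first 2 comparisons.

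Small leucine-rich proteoglycans and relatives differed in both directions. Without the rule genes Fmod and Kera, 6 of 11 were lower and 1 higher in suffixes 4 to 6, and 5 were lower and 3 higher in suffixes 7 to 9. Dcn (decorin) averaged 36150 CPM in suffixes 1 to 3 and 11220 and 13120 CPM in suffixes 4 to 6 and 7 to 9 (-1.72 and -1.47). Prelp was lower by -1.83 and -1.25. Lum (lumican) was higher in suffixes 7 to 9 (4165 against 2481 CPM), a call lost without peak 1 or resolving 2 (adjusted p = 0.0553 and 0.0509). Among 14 genes of elastic fibres, 9 were higher in suffixes 4 to 6 and 8 in suffixes 7 to 9. Fbn2, the fibrillin of embryonic and growing tissue, was at 7.22, 61.9 and 64.1 CPM in suffixes 1 to 3, 4 to 6 and 7 to 9. Eln (elastin) was called in suffixes 4 to 6 (182.8 against 42.3 CPM), but not with at least 4 tenocyte genes (log2 fold change 0.87, adjusted p = 0.651).

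Of 22 enzymes and chaperones of collagen, 10 were higher in suffixes 4 to 6, 14 in suffixes 7 to 9 and 2 in suffixes 10 to 12, and 2, 4 and 0 were lower. P4ha3, a prolyl hydroxylase subunit, averaged 15.6 CPM in suffixes 1 to 3, 100.9 CPM in suffixes 4 to 6, 100.6 CPM in suffixes 7 to 9 and 39.2 CPM in suffixes 10 to 12, and was called in all 3 comparisons. The call in suffixes 10 to 12 was lost with at least 4 tenocyte genes (log2 fold change 0.45, adjusted p = 0.864), with the study's limits on UMIs (0.0618), and without peak 1, resolving 1, resolving 3 or resolved 3 (0.0553 to 0.0871). Lox (lysyl oxidase), which cross-links collagen, was lower in suffixes 7 to 9 (463.6 against 813.7 CPM, -0.83 ± 0.18, adjusted p = 0.00344), while its relatives Loxl1 and Loxl2 were higher there. The call of Loxl2 was lost with at least 4 tenocyte genes (0.40, adjusted p = 0.373), with the label as a block (0.0863), and without rest 1, peak 1, resolving 1 or resolved 2 (0.0701 to 0.142). Cthrc1, a secreted protein of matrix-producing cells, was at 129.6, 120.3 and 149.0 CPM in suffixes 1 to 3, at 1047, 1073 and 1413 CPM in suffixes 4 to 6, at 2630, 3079 and 2856 CPM in suffixes 7 to 9, and at 525.2, 792.9 and 365.8 CPM in suffixes 10 to 12. The 4 sets did not overlap, and the log2 fold changes were 3.11, 4.42 and 2.15 (adjusted p = 5.76e-07, 2.81e-08 and 0.000277). In endothelial-rule cells Cthrc1 stood at 33.2, 69.5, 146.7 and 19.4 CPM in the same order, which is the level that free RNA and shared signal may give.

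Lrrc15, a membrane protein of matrix-producing fibroblasts, was at 9.02, 1.62 and 2.33 CPM in suffixes 1 to 3 and was higher in all other sets, by 2.60, 4.63 and 3.78. Of 14 matrix proteases, 5 were higher in suffixes 4 to 6, 7 in suffixes 7 to 9 and 2 in suffixes 10 to 12. Mmp13, a collagenase, averaged 40.0, 229.4, 456.0 and 345.5 CPM, and its values in suffixes 10 to 12 were 201.1, 710.3 and 124.9 CPM, where the call was lost without rest 1, peak 1, resolving 1 or resolving 3 (adjusted p = 0.109 to 0.191). Its call in suffixes 4 to 6 was lost without peak 1, rest 2 or peak 2 (0.0538 to 0.0799). Mmp3 (stromelysin) was higher in suffixes 4 to 6 (818.3 against 97.5 CPM) and 7 to 9 (335.9 CPM). With at least 4 tenocyte genes neither call of Mmp3 was kept (adjusted p = 0.127 and 0.479), and that in suffixes 7 to 9 was also lost without resolving 1 or resolving 2 (0.0574 and 0.0531). Timp1, an inhibitor of these proteases, was higher in both (3019 and 851.9 against 436.0 CPM), and Timp3 was lower in both (-1.45 and -2.07). The call of Timp1 in suffixes 7 to 9 was lost with at least 4 tenocyte genes (0.44, adjusted p = 0.596) and without rest 1, peak 1 or resolving 2 (0.0508 to 0.0609).

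**Figure D4:**
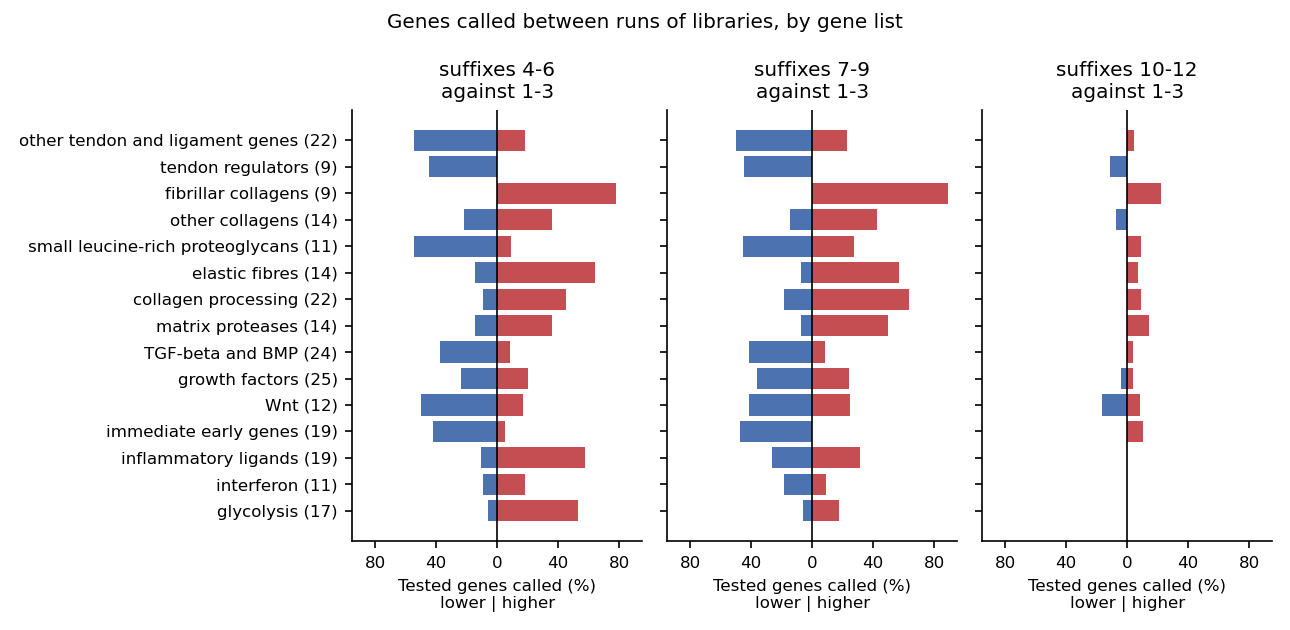
Percent of the tested genes of each list (number tested in brackets, genes of the rule left out) called higher (red, right) or lower (blue, left) in tendon-rule cells of suffixes 4 to 6, 7 to 9 and 10 to 12 against suffixes 1 to 3. In suffixes 4 to 6, 7 of 9 fibrillar collagens are higher and 6 of 11 leucine-rich proteoglycans lower, where 10.8% of all genes were higher and 10.9% lower.

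Inflammatory ligands differed in both directions. Of 19 tested, 11 were higher and 2 lower in suffixes 4 to 6, 6 were higher and 5 lower in suffixes 7 to 9, and 0 were called in suffixes 10 to 12. Cxcl5, a chemokine that draws neutrophils, had 0 UMIs in suffixes 1 to 3 and 10 to 12. It was at 390.1, 310.2 and 418.0 CPM in suffixes 4 to 6, at least 241-fold higher than the level of 3 UMIs over the suffix 1 to 3 libraries. In suffixes 7 to 9 it was at 70.2, 19.2 and 2.32 CPM, at least 19.7-fold higher, and that call was lost without rest 1, peak 1, resolving 1 or resolved 1 (adjusted p = 0.0592 to 0.141). In endothelial-rule cells it was at 106.2 CPM in suffixes 4 to 6 and at 1.46 CPM in suffixes 7 to 9. Within the tenocytes and ligament cells, Cxcl5 was at 571.9 CPM in 1 cluster (cluster 6, below) and at 10.79 CPM in the other cells. Saa3, an acute-phase protein, was at 0, 1.62 and 4.66 CPM in suffixes 1 to 3, at 480.4, 404.5 and 217.2 CPM in suffixes 4 to 6 and at 401.0, 196.8 and 71.9 CPM in suffixes 7 to 9. In suffixes 10 to 12 it was at 2.45, 0 and 408.3 CPM, so that resolved 3 alone was high. The calls of Saa3 were lost without rest 1 in suffixes 4 to 6 (adjusted p = 0.0586), and without rest 1, peak 1 or resolving 1 in suffixes 7 to 9 (0.0584 to 0.106).

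Ccl20, which attracts lymphocytes, was likewise at 0 in suffixes 1 to 3 and 10 to 12 and averaged 30.8 CPM in suffixes 4 to 6 (at least 22.2-fold higher). Cxcl12, a chemokine made by stromal cells, was higher in suffixes 4 to 6 (1.64, adjusted p = 0.000146) and 7 to 9 (1.25, adjusted p = 0.00119). Cxcl14 was higher in suffixes 4 to 6 (1.23, adjusted p = 0.0215; lost without rest 1, peak 1, resolving 1 or rest 2, at 0.0546 to 0.111) and lower in suffixes 7 to 9 (-1.65). Il6 was lower: it was at 348.2, 115.4 and 246.7 CPM in suffixes 1 to 3, at 75.9, 156.2 and 137.4 CPM in suffixes 4 to 6 with overlap (-0.95 ± 0.33, adjusted p = 0.0494; lost without any 1 of 9 libraries, at up to 0.336 without rest 1), and at 75.1, 66.9 and 45.4 CPM in suffixes 7 to 9 (-1.94 ± 0.33, adjusted p = 0.000659). Csf1, the growth factor of macrophages, was lower in both sets too (-0.98 and -1.71). Summed immune markers were between 0 and 48.9 CPM in every library.

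Of 24 genes of TGF-beta and BMP signalling, 9 were lower and 2 higher in suffixes 4 to 6, and 10 were lower and 2 higher in suffixes 7 to 9. The BMP antagonist Nog (noggin) was lower in both sets, in suffixes 4 to 6 not without peak 1 (adjusted p = 0.0571), as was Bmp4 (87.8 CPM in suffixes 1 to 3; 26.5 and 22.1 CPM in the others). Mstn (myostatin), a growth inhibitor of muscle that tendon cells also express, was higher in suffixes 7 to 9 and 10 to 12 (73.4 and 146.9 against 15.6 CPM), and lost both calls without rest 1 (adjusted p = 0.211 and 0.171), resolving 1 (0.135 and 0.142) or resolved 3 (0.056 and 0.113) and by DESeq2 (0.123 and 0.0682). Without resolving 2 or resolved 2 the former was lost too, and without peak 1 or peak 3 the latter. The secreted Wnt antagonists Wif1 and Dkk2 were lower in all 3 comparisons. Wif1 was at 1085, 1125 and 1848 CPM in suffixes 1 to 3, at 171.6, 238.9 and 128.4 CPM in suffixes 4 to 6, at 200.5, 104.6 and 68.2 CPM in suffixes 7 to 9, and at 550.8, 181.4 and 177.7 CPM in suffixes 10 to 12. No other library reached the lowest of suffixes 1 to 3, and the call in suffixes 10 to 12 was lost without any 1 of the 3 libraries of suffixes 1 to 3, resolving 3 or resolved 3 (adjusted p = 0.0509 to 0.16). Sfrp1, another Wnt antagonist, was higher in suffixes 4 to 6 (234.1 against 9.03 CPM) and 7 to 9 (65.2 CPM). Among 25 growth factor genes, Fgf9 had the largest decrease in both sets (-3.68 and -3.30), and Igfbp4 was higher in both (1.46 and 1.89).

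Of 17 glycolysis genes, 9 were higher in suffixes 4 to 6 and 1, Hk1, was lower. In suffixes 7 to 9 these counts were 3 and 1, and in suffixes 10 to 12 they were 0 and 0. Gapdh was at 527.4, 521.7 and 481.9 CPM in suffixes 1 to 3 and at 1810, 1300 and 1613 CPM in suffixes 4 to 6 (1.57 ± 0.13, adjusted p = 2.59e-06). Ldha (lactate dehydrogenase) was higher by 1.05 and Slc16a3, a lactate exporter, by 2.53. Genes of cell division went with the same set, and lay mostly in cluster 6 (below), where Mki67 was at 106.1 CPM against 0.9605 CPM in the other cells. Cdk1 and Mki67 had 0 UMIs in suffixes 1 to 3, and Cdk1 averaged 54.6 CPM in suffixes 4 to 6 (at least 36.2-fold higher) and 28.7 CPM in suffixes 7 to 9 (at least 19.2-fold higher). Cells with at least 2 of 5 division genes were 13.3%, 2.08% and 21.9% in suffixes 4 to 6, 3.77%, 5.96% and 3.28% in suffixes 7 to 9, and 0 of 298 and 0 of 454 cells, pooled over 3 libraries each, in suffixes 1 to 3 and 10 to 12. By counting error alone this allows shares of up to 1.01% and 0.661% of cells with such UMIs, which is no limit on dividing cells. The median UMIs per cell averaged 5921, 7180, 7830 and 6464 over the libraries of the 4 sets, and the part of depth in these shares was not tested.

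Genes listed as markers of other cells moved with some of these sets. Of the 7 fibroblast markers, 4 averaged higher in tenocytes and ligament cells than in fibroblast-rule cells, so their sum does not mark fibroblasts alone. Summed fibroblast markers, which include Dcn and Gsn, were at 54260 to 60340 CPM in suffixes 1 to 3 and 50250 to 56930 CPM in suffixes 10 to 12, and at 14700 to 24360 and 19620 to 26840 CPM in suffixes 4 to 6 and 7 to 9. Haemoglobin and related genes summed to 160.9 to 270.4 CPM in suffixes 1 to 3 and 438.6 to 644.7 CPM in suffixes 4 to 6. Summed osteoblast markers ranged from 135.4 CPM to 2295 CPM, the latter in suffixes 10 to 12. Endothelial markers stayed between 6.96 and 62.8 CPM. Summed muscle markers were at 15.8 to 32.6 CPM in suffixes 1 to 3, 16.8 to 25.3 CPM in suffixes 4 to 6, 23.7 to 300 CPM in suffixes 7 to 9, where resolved 2 was the highest, and 52.8 to 66.3 CPM in suffixes 10 to 12. Of the 8 muscle markers Pax7 was at 0 in all libraries, and of the 2 that were tested 0 were called. Their part in the differences was not tested. Acan, a cartilage gene that the rule limits, was at 13.9, 221.3, 250.6 and 17.9 CPM in the 4 sets.

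The differences by suffix were then compared with those of fibroblast-rule cells of the same libraries in 1 model. For 222 of 10974 genes (2.02%) a difference between the 2 classes was called (edgeR interaction, adjusted p under 0.05), and DESeq2 called 189, of which 170 were shared. On simulated data false calls of this interaction exceeded the nominal rate, so more of the genes called may be false than the limit implies. Between labels the interaction gave 0 genes, with 281 at an unadjusted p under 0.05 and 0 by DESeq2. Dpt (dermatopontin), a collagen-binding protein, averaged 104.8, 383.0, 485.1 and 155.5 CPM in tenocytes and ligament cells and 664.1, 434.3, 704.7 and 564.3 CPM in fibroblast-rule cells, in the order of the suffixes. Cd248 (endosialin), a surface protein of stromal cells, averaged 4.85, 52.9, 65.3 and 15.4 CPM against 159.5, 148.3, 229.6 and 123.7 CPM. Both genes were thus nearer to the fibroblast level in suffixes 4 to 9.

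Lox went the other way. It averaged 813.7, 796.3, 463.6 and 590.4 CPM in tenocytes and ligament cells and 150.5, 671.5, 454.0 and 146.5 CPM in fibroblast-rule cells, so the fibroblast level came near that of tenocytes in suffixes 4 to 9. Cthrc1 was nearly as high in both classes in suffixes 4 to 6, but in suffixes 10 to 12 it was at 561.3 CPM in tenocytes and ligament cells and at 121.4 CPM in fibroblast-rule cells. The interaction was called for 5 of 10 fibrillar collagens other than Col2a1 (Col1a1, Col1a2, Col3a1, Col5a1 and Col5a2) and for 8 of 23 other tendon genes. It was called for 8 of 26 inflammatory ligands, 0 of 20 glycolysis genes and 0 of 12 tendon regulators other than Scx and Mkx, and not for Hk2 (adjusted p = 0.282).

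The cells were last divided into 9 clusters by their own expression, given by number and by leading genes, as a description without a test. Cluster 1 (128 cells, in all 12 libraries at 2.33% to 18.8%) was led by Fam159b, Pla2g7, Col22a1 and Chodl. Col22a1 encodes a collagen of the muscle-tendon junction, and cluster 1 had the highest levels of Thbs4 (8356 CPM), Tnmd (3311 CPM) and Scx (208.5 CPM) of the 9. Cluster 2 (378 cells) was led by Coch, Pla2g5, Hpgd and Wif1 and held 58.3% of the cells of peak 1. Coch was at 2324 CPM there but was detected in 20.4% of its cells, so the high mean rests on few cells. Fmod was at 11430 CPM in this cluster.

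Cluster 3 (193 cells) was led by Plau, Rrad and Icam1, and cluster 4 (246 cells) by Sfrp4, Dkk2 and Gpnmb. Cluster 5 (146 cells) was led by Bglap2 and Bglap, which encode osteocalcin, and held Omd and Dlx5 among its leading genes. Cluster 4 held 20.2% of the cells in suffixes 1 to 3 and 33.2% in suffixes 10 to 12, as means over libraries, and 4.80% and 2.78% in the other sets. Cluster 6 (132 cells, median 13935 UMIs) was led by division genes and Cxcl5, held 29.1% of cells in suffixes 4 to 6, and had 0 cells in suffixes 1 to 3 and 10 to 12. Its Tnmd level was 383.5 CPM and its Fmod level 1039 CPM, the lowest of the 9 clusters. Cells just outside the rule, with 2 tenocyte genes, had 507.9 and 2299 CPM. The levels of Cxcl5 and of division genes given above thus lay largely in a cluster with low levels of these 2 tendon genes.

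Clusters 7, 8 and 9 lay mostly in suffixes 7 to 9, at 20.9%, 19.9% and 33.5% of cells. Cluster 7 (222 cells) was led by Dnaja4, Rgs2 and Klf2, with Eln and Col14a1 among its leading genes. Cluster 8 (233 cells) was led by Eno3, Tnn and Procr, with Lrrc15 and C1qtnf3. Cluster 9 (328 cells) was led by Myl1, a myosin light chain of muscle, Slc40a1 and Mdk, with Matn4, Mfap2 and the proteases Mmp13 and Mmp14. Clusters 7 and 9 had 0 cells in suffixes 1 to 3. A cluster that lies mostly in 1 set of libraries may be that set rather than a kind of cell, and the differences by suffix above are a part of what placed the cells.

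**Figure D5:**
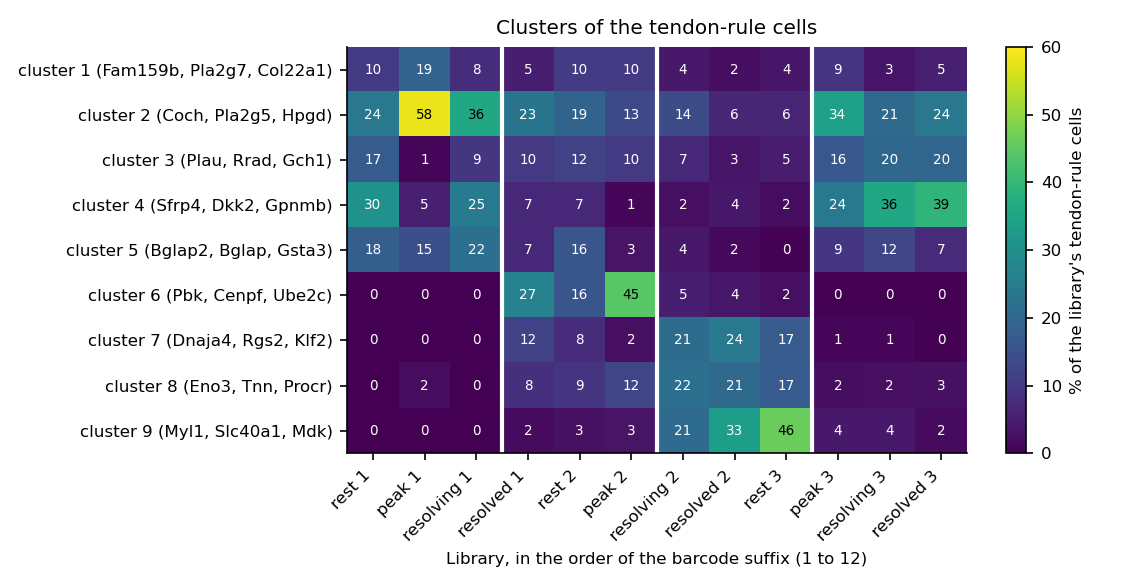
Percent of the tendon-rule cells of each library (columns, in the order of the barcode suffix) in each of 9 clusters (rows, with 3 leading genes), as colour and number. Clusters 6 to 9 each hold at most 4.17% of the cells of any library in suffixes 1 to 3 and 10 to 12, and cluster 9 reaches 46.3% in rest 3.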

How the data were processed

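Single-cell RNA sequencing had been done on 12 libraries of CD45-negative joint cells with the 10x Genomics 3′ kit (version 2). The authors aligned the reads to mm10 with Cell Ranger and deposited whole-number counts of UMIs for 27998 genes per cell, from before their own limits on cells. Groups came from the sample labels. Where the labels do not say that replicates came from separate days, p-values between labels measure the spread between pools of 3 animals. Each set of suffixes held libraries of different labels. P-values by suffix therefore measure the spread between libraries of different labels, not between replicate pools with the same label.

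Cells were chosen by the rule in the report, and comparison classes by marker genes. The members and the gene lists were chosen with earlier results of these data known. The UMIs of a class of cells were added up within each library. Sums of tenocytes and ligament cells and of fibroblast-rule cells (at least 10 cells each) were compared by the quasi-likelihood F test of edgeR 4.0.16 under R 4.3.3. Sums of chondrocyte-rule cells had no such minimum (1 cell in resolving 3) and were not tested. Library sizes were scaled by TMM, genes of low counts were dropped by filterByExpr, and p-values were adjusted by Benjamini-Hochberg over all genes fitted. All 12 libraries entered each fit. A gene was called at an adjusted p under 0.05 with a log2 fold change beyond 0.5 in size, and an interaction at an adjusted p under 0.05 alone. Folds against groups without UMIs were bounded with 3 UMIs over the group. The fits were tested on simulated data, where false calls of the interaction exceeded the nominal rate and changes between labels of 1 log2 unit were not recovered. Shares were compared by exact permutation tests.

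Genes named are the rule's genes, genes of the fixed lists by size of change, the 10 largest changes each way per comparison, the 10 lowest interaction p-values, the 25 highest ratios to other classes, Hk2 and Hk1; Gm, Rik, mitochondrial, haemoglobin and immunoglobulin genes were left out of the ranked parts. Some list genes and the leading genes of clusters were named after their values were seen. Clusters came from scanpy 1.11.5 (2000 variable genes, 20 components, 15 neighbours, Leiden resolution 0.5), with leading genes of at least 50 CPM in at least 20% of cells. Doublets were kept, and 145 of the 2006 cells (7.23%) were among the 6% with the highest Scrublet scores per library. Alternatives were DESeq2 1.42.0, RLE size factors, no filter on low counts, other limits on cells and markers, blocks and leaving out each library. How the counting treated reads of overlapping genes or paralogs is not given in the sources used here, and such genes are uncertain. Gene positions are from GENCODE on GRCm38 and promoters from RefSeq on GRCm38.p6.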

Additional observations from a re-analysis of the deposited data

Results flagged for a closer look

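The comparison of differences by suffix between tenocytes and ligament cells and fibroblast-rule cells gave 222 genes, each from a test of the difference itself in 1 edgeR model. False calls of this test exceeded the nominal rate on simulated data. The values that follow are the log2 difference of tenocytes and ligament cells minus that of fibroblast-rule cells, in the set of suffixes where it was largest, for the 10 genes with the lowest adjusted p. Genes that rose more, or fell less, against suffixes 1 to 3 in tenocytes and ligament cells were Cd248, the stromal surface protein endosialin (3.52), Dpt, dermatopontin (2.44, adjusted p = 2.26e-08), Osr2, a transcription factor of limb and joint (2.35), Cthrc1 (2.07), Fn1, fibronectin (1.51), Gnpnat1, an enzyme of amino sugar synthesis (1.48), and Tmsb4x, an actin-binding peptide (1.44). The other 3 went the opposite way and were Lox (-2.38, adjusted p = 4.42e-07), Mfap4 (-1.86) and Emb, the membrane protein embigin (-1.67).

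Lox rose in fibroblast-rule cells in suffixes 4 to 6 and 7 to 9 (log2 fold changes 2.18 and 1.61) and was at -0.09 and -0.83 in tenocytes and ligament cells. Emb averaged 62.9 CPM in fibroblast-rule cells of suffixes 1 to 3 and 319.0 CPM in suffixes 4 to 6, and 189.5 and 320.8 CPM in tenocytes and ligament cells. Fn1 averaged 717.3, 1734, 2514 and 1047 CPM in tenocytes and ligament cells in the order of the suffixes. The cause of these differences was not tested.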

How the results depend on the processing

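The comparisons between labels gave 0 genes under every alternative run, with replicate numbers as a block included. Same-numbered libraries did not deviate together throughout. Over 9 pairs of a rest library with a later one of the same number, the correlation of deviations, across genes, lay between -0.337 and 0.459. It was over 0.1 in 4, so the numbers were not taken as pairs. Some of these pairs lie within a set of suffixes and others across sets, and the numbers partly follow the sets. The replicate block gave 0 genes for peak, resolving and resolved against rest.

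Leaving out 1 library moved the differences in share from rest between -5.66 and 0.121 points for peak, between -4.94 and 2.29 for resolving (0.935 without resolving 1), and between -5.79 and 0.749 for resolved; the highest value of each came without rest 3. The spread between sets of suffixes stayed between 84.7% and 92.7%, and between 81.4% and 89.4% under the other settings, with p from 0.00240 to 0.0130.

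With at least 4 of 5 tenocyte genes, which leaves fewer cells, 717, 740 and 24 genes were called in suffixes 4 to 6, 7 to 9 and 10 to 12, 123 for the interaction by suffix and 1 for that by label. Without the filter on low counts 352 genes were called in suffixes 10 to 12, 737 for the interaction by suffix and 162 for that by label. Leaving out 1 library gave 1125 to 1792, 997 to 1683 (lowest without rest 1) and 43 to 106 genes (43 without peak 1, 50 without resolving 1 or resolving 3, 48 without resolved 3), 161 to 247 for the interaction by suffix and 0 to 2 for that by label (2 without peak 2).

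Some log2 fold changes of single genes changed sign. Col8a1 in suffixes 4 to 6 was at 0.05 with at least 4 tenocyte genes. In suffixes 10 to 12, Kera was at 0.06 and Tnmd at 0.11 with the label as a block. With 1 library left out, the values in suffixes 10 to 12 ranged from -0.24 to 0.15 for Fmod, from -0.27 to 0.12 for Kera and from -0.13 to 0.06 for Tnmd. In suffixes 7 to 9 they ranged from -3.72 to 0.06 for Igfbp2 (highest without rest 1), from -0.29 to 0.10 for Kera and from -0.01 to 0.22 for Tnmd. Of 3804 values of single genes under the other settings, 3619 kept direction and side of the threshold and 175 lost their call; of 4728 with 1 library left out, 4367 and 350 did. The cause of these changes was not tested. With 60 to 386 cells per library, genes below the filter on low counts were not tested in the report's fits.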

Other observations

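Some genes of bone were measured within the cells chosen for tendon, and they differed in both directions. Of 6 osteoblast markers tested, 3 were lower and 1 higher in suffixes 4 to 6. In suffixes 7 to 9, 4 were lower and 1 higher, and in suffixes 10 to 12, 0 were lower and 1 higher. The higher marker was Mmp13 each time, with the lost calls given above. Bglap (osteocalcin) averaged 156.2 CPM in suffixes 1 to 3, 18.5 CPM in suffixes 4 to 6 and 14.4 CPM in suffixes 7 to 9, and was lower in both (edgeR, log2 fold changes -3.07 and -3.43, adjusted p = 0.000766 and 0.000149). In endothelial-rule cells, which should lack it, Bglap was at 18.1, 68.9 and 5.84 CPM, from 6.09%, 2.23% and 2.62% of the cells. The level in tenocytes and ligament cells was below this in suffixes 4 to 6 and above it in suffixes 7 to 9. The part of free RNA in it was not tested. Within the tenocytes and ligament cells, Bglap was at 871.2 CPM in cluster 5 and at 10.18 CPM in the other cells. Cluster 5 held 18.2% of cells in suffixes 1 to 3 and 9.70% in suffixes 10 to 12, as means over libraries. It held 8.59% and 1.91% in suffixes 4 to 6 and 7 to 9. The part of this cluster in the differences was not tested. Alpl, the phosphatase of mineralizing cells, was lower in the same sets (-1.59 and -2.29; in suffixes 4 to 6 not without the highest doublet scores, adjusted p = 0.124), and Ibsp, a sialoprotein of bone, was lower in suffixes 7 to 9 (-4.84, adjusted p = 0.00891).

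Mediators of the blood clotting and opioid systems were also measured. F2r, the thrombin receptor, averaged 66.3 CPM against 20.3 CPM in fibroblast-rule cells, as a description without a test. Penk (proenkephalin) was lower than in suffixes 1 to 3 in all 3 comparisons (180.6 CPM in suffixes 1 to 3; 90.8, 31.3 and 39.8 CPM in the others; adjusted p = 0.0048, 4.55e-06 and 0.000775). Rgs4, a regulator of G protein signalling, was higher in all 3 (2.65 CPM in suffixes 1 to 3; 45.01, 48.4 and 44.2 CPM in the others), in suffixes 10 to 12 not with at least 4 tenocyte genes (adjusted p = 0.229).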
